A study of Mus musculus with 8 samples.

Results

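Lymphoid and multipotent progenitor priming was read from 9 genes, Flt3, Dntt, Il7r, Satb1, Ccr9, Cd27, Cd52, Lsp1 and Ighm, chosen by name among the 48835 rows of each deposited table. Of the 9, 8 had an mRNA model, as did 22050 genes in all, and Ighm did not. Libraries were made from haematopoietic stem cells (HSCs) of C57BL/6 mouse bone marrow, 4 at postnatal day 5 (P5) and 4 at 4 weeks of age, with 100 sorted cells each. The labels give no treatment or mutation and name no animals behind the libraries. The p-values therefore measure the spread between these libraries, which may be technical in part or, at 4 weeks, in whole. The study's design text also mentions HSCs kept in culture for 1 day, which no sample label names. The question was whether transcripts linked to lymphoid and multipotent progenitors differed between neonatal and juvenile HSCs.

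HSCs that begin to lose self-renewal pass through multipotent progenitors, in which low-level transcription of lineage genes is called priming. The lymphoid branch is marked by the receptor Flt3, then by the recombination enzyme gene Dntt and the interleukin-7 receptor gene Il7r, before B and T cell genes are switched on. The chromatin organiser Satb1 is known to favour lymphoid fate when raised in mouse HSCs, and Cd27 is a surface protein that mouse HSCs and progenitors both carry. Ccr9 is the receptor for the thymus and gut chemokine Ccl25. Cd52 encodes a small lipid-anchored glycopeptide, Lsp1 an actin-binding protein of leukocytes, and Ighm the constant region of the immunoglobulin mu heavy chain.

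The members divided into 3 that were higher at P5, 3 that were measured and not called, and 3 with few or no assignable reads. Lsp1, Satb1 and Flt3 were higher at P5, by 1.82-fold, 2.11-fold and 1.56-fold. Cd52, Cd27 and Ccr9 did not pass the test. Dntt and Il7r had 3 reads and 1 read in exons over the P5 libraries and none at 4 weeks. A call is an adjusted p under 0.05 in edgeR's quasi-likelihood test with Benjamini-Hochberg adjustment over the 12235 genes with enough exon reads. Of those genes, 16.5% were called, 7.99% higher and 8.55% lower at P5. Among the 6 members that passed the filter on low counts, 3 were called higher and 0 lower. Of these 6, Cd52 passed the filter only through P5. The median log2 fold change of the 6 was 0.75, against -0.00424 over all genes tested. The members were chosen with earlier results of these data known, so this contrast is a description only. In these bulk libraries fewer cells with a transcript cannot be told apart from less of it in each cell.

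Each library held 5775130 to 7470777 exon reads. Reads of the Y-linked genes were at most 2 in P5 replicates 1 and 3 and 1532 to 2293 in the other 6 libraries, so the P5 libraries were split in this and the 4-week libraries were not. The P5 libraries were therefore not all repeats of the same source of cells. Transcripts of the sort gate, CD150+ CD48- EPCR+ and lineage-negative, were read as a check of the cell label. Procr, which encodes EPCR, averaged 55.0 ± 8.0 CPM (exon reads scaled to library depth) at P5 and 57.1 ± 8.03 CPM at 4 weeks (SD, n = 4 each), and Slamf1, which encodes CD150, averaged 33.8 ± 4.69 CPM at P5 and 36.6 ± 4.40 CPM at 4 weeks. Cd48 was low, at 4.98 ± 3.57 CPM at P5 and 5.10 ± 2.66 CPM at 4 weeks. Of 11 tested HSC genes, Ctnnal1, Fgd5 and Mecom were called higher and Ly6a lower at P5, beside 7.99% and 8.55% of all tested genes. The stem cell factor Hlf, the most abundant of the 11, averaged 1404 CPM at P5 and 1252 CPM at 4 weeks (edgeR adjusted p = 0.211).

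Promoter sequence was shown for the members at the ends of the range, Flt3 and Satb1, which were called higher, and Dntt and Il7r, which had almost no exon reads. Sequences were taken from RefSeq (GRCm38.p6), which had entries for 6 of the 9 members; Cd52, Lsp1 and Ighm had none. Each window runs 5′ to 3′ on the gene's strand, from 250 bases before the start site to 50 after it. The Flt3 window is chr5:147400440-147400739 (minus strand), the Satb1 window at the outermost of its 5 start sites chr17:51833241-51833540 (minus), the Dntt window chr19:41029025-41029324 (plus) and the Il7r window chr15:9529827-9530126 (minus). Capitals mark matches, on either strand, to 5 motifs: the E-boxes CAGGTG and CAGCTG, the Ikaros-type TGGGAA, the PU.1-type GAGGAAGT and the Runx-type TGTGGT.
Flt3: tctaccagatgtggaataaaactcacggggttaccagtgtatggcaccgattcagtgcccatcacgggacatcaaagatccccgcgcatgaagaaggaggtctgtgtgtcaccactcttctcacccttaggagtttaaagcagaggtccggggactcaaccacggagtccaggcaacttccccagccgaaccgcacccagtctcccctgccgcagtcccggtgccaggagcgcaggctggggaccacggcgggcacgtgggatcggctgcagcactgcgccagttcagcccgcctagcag
Satb1: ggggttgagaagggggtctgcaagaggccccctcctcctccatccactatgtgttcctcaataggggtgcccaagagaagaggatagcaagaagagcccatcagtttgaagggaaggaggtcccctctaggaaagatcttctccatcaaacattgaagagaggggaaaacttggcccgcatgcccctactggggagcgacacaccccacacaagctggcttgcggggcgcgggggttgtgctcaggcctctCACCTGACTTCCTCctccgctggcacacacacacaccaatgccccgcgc
Dntt: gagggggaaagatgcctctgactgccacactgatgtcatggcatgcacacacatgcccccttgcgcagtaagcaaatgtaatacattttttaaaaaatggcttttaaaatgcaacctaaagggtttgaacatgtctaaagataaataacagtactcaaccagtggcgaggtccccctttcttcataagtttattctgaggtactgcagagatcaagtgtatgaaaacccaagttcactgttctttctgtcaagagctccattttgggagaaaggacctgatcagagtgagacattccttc
Il7r: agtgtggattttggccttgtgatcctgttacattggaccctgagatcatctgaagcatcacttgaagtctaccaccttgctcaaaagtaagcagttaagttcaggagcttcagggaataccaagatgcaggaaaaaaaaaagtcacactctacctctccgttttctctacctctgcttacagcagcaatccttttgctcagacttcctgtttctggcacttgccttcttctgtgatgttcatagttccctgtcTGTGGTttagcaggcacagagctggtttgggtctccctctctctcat

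The Satb1 window held CAGGTG and GAGGAAGT, both on the opposite strand and lying end to end in 1 stretch of capitals. The Il7r window held TGTGGT near its start site, and the Flt3 and Dntt windows held none of the 5. Over 32841 RefSeq windows of the same 300 bases, CAGGTG was present in 20.2%, CAGCTG in 16.3%, TGGGAA in 25.6%, GAGGAAGT in 3.20% and TGTGGT in 16.8%. The windows also differed in base composition. Flt3 had 18 CpG pairs, Dntt 2 and Il7r 1, with a median of 7 over all windows. The 5 Satb1 start sites, from the one printed inward, had 8, 45, 3, 13 and 7 CpG pairs, and the third and the fifth of them held 4 and 1 further motif matches. A motif match is a description of these letters only.

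Lsp1 gave the most reads of the members. It had 243, 239, 199 and 212 CPM in P5 replicates 1 to 4, against 118, 116, 128 and 128 CPM at 4 weeks. All P5 libraries lay above all 4-week libraries. The mean was 223 ± 21.0 CPM at P5 and 123 ± 6.32 CPM at 4 weeks (SD, n = 4 each), a log2 fold change of 0.86 (SE 0.0838; edgeR adjusted p = 1.36e-05). The gene lies at chr7:142458223-142494868 in the build of the tables (mm10), and 11.1% of its span is shared with Prr33. Prr33 itself had 611 gene reads (exon and intron together) at P5 and 220 at 4 weeks, and the library kit does not mark strand. Reads across Lsp1 exon-exon junctions gave a log2 fold change of 0.76 (edgeR adjusted p = 1.12e-05), and uniquely assigned exon reads gave 0.81 (edgeR adjusted p = 1.35e-05). Junction reads called 3 members, Lsp1, Satb1 and Flt3, all higher, beside 9.38% of 9191 genes, 4.35% higher and 5.03% lower.

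Satb1, at chr17:51736187-51833290, changed the most of the called members. It had 121, 151, 99.6 and 109.8 CPM in the P5 libraries, against 62.6, 44.1, 60.4 and 60.8 CPM at 4 weeks. The ages did not overlap, and 4-week replicate 2 was the lowest library. The mean was 120.3 ± 22.3 CPM at P5 and 57.0 ± 8.62 CPM at 4 weeks (SD, n = 4 each), with a log2 fold change of 1.08 (SE 0.140; edgeR adjusted p = 0.000156). The call held in all 22 alternative settings, with log2 fold changes of 0.95 to 1.20. Introns held 70.2% of Satb1 gene reads at P5 and 72.7% at 4 weeks, and intron reads alone gave a log2 fold change of 1.07 (edgeR adjusted p = 0.000481). Of the 6 members tested, Lsp1 and Satb1 were the 2 whose ages did not overlap, which held for 21.2% of all tested genes in either direction and for 10% in the higher direction.

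Flt3, the receptor tyrosine kinase for Flt3 ligand, lies at chr5:147330741-147400489. It had 119, 149, 71.9 and 111 CPM in P5 replicates 1 to 4, against 86.4, 50.5, 68.3 and 82.8 CPM at 4 weeks. P5 replicate 3 fell among the 4-week libraries, and the other 3 P5 libraries lay above all of them. The mean was 113 ± 31.6 CPM at P5 and 72.0 ± 16.3 CPM at 4 weeks (SD, n = 4 each), a log2 fold change of 0.64 (SE 0.198; edgeR adjusted p = 0.0408). The call was close to the threshold: leaving out 1 library gave 0.48 to 0.81 with edgeR adjusted p of 0.00775 to 0.0956, and the call was lost in 6 of these 8 fits. Without P5 replicate 3 the value was 0.81 (edgeR adjusted p = 0.00775), and without P5 replicate 2 it was 0.48 (edgeR adjusted p = 0.0956). With a covariate for Y-linked reads it was 0.85 (edgeR adjusted p = 0.0263), and in the 6 libraries with such reads it was 0.85 (edgeR adjusted p = 0.0170). The authors' deposited table gave Flt3 an FDR-corrected p of 0.0579.

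**Figure D1:**
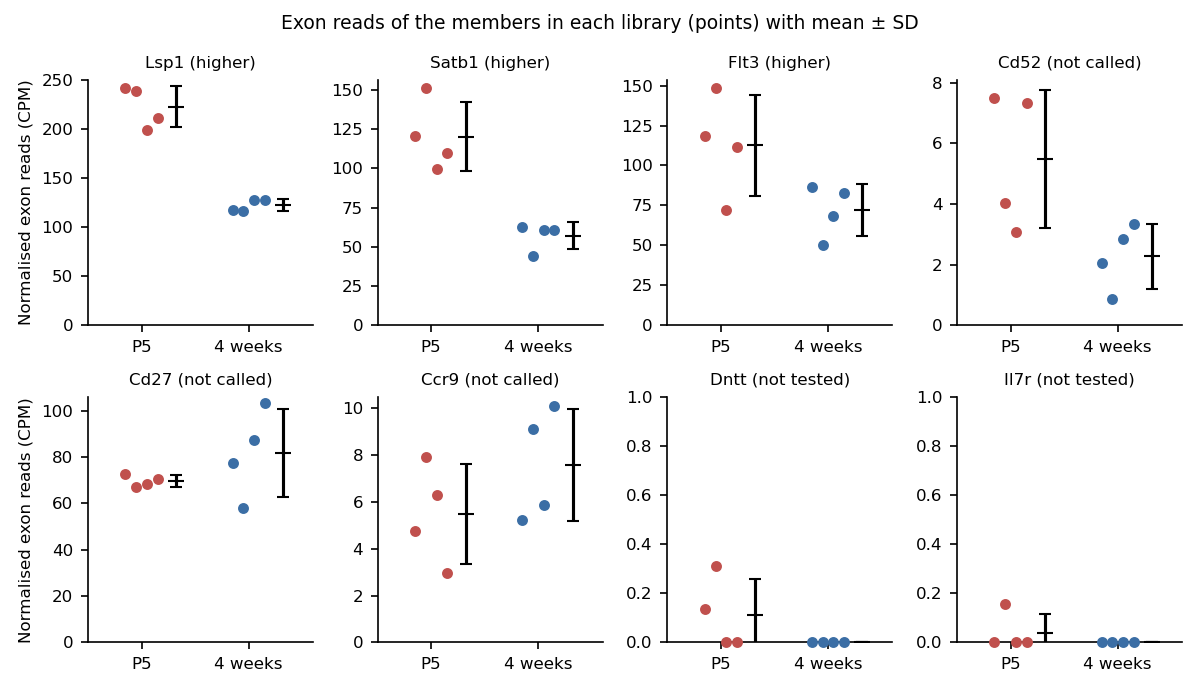
Normalised exon reads (CPM, linear axis from 0, a separate scale in each panel) of the 8 members with an mRNA model; points are libraries and bars are mean ± SD of 4 libraries, with P5 in red and 4 weeks in blue. Lsp1 and Satb1 separate the ages, Flt3 overlaps through P5 replicate 3 at 71.9 CPM, and Dntt and Il7r stay below 1 CPM.

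Cd52 had few reads at both ages. It had 7.5, 4.04, 3.07 and 7.33 CPM in P5 libraries, against 2.05, 0.862, 2.86 and 3.32 CPM at 4 weeks, from 152 reads at P5 and 59 at 4 weeks. P5 replicate 3 lay below 4-week replicate 4, so the ages overlapped. Cd52 passed the filter on low counts only through P5, as 4-week replicate 2 had 5 reads. The log2 fold change of 1.26 (SE 0.444) did not pass (edgeR adjusted p = 0.0709), while DESeq2 called it (adjusted p = 0.0395), as did the authors' deposited table (FDR-corrected p = 0.0470). The gene is short, at chr4:134093538-134095073, and 8.55% of its exon reads at P5 and 11.9% at 4 weeks crossed a junction.

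Cd27, at chr6:125232620-125237136, was not called and varied most among the 4-week libraries. It had 72.8, 67.0, 68.4 and 70.5 CPM in P5 libraries, against 77.4, 58.1, 87.2 and 103 CPM at 4 weeks. The SD was 2.54 CPM at P5 and 19.0 CPM at 4 weeks (n = 4 each), and the ages overlapped. The log2 fold change was -0.23 (SE 0.141; edgeR adjusted p = 0.306), with a 95% interval of -0.51 to 0.05. Without 4-week replicate 2, the lowest of its age, it was -0.35 (edgeR adjusted p = 0.0471). The row E130112N10Rik covers all of the Cd27 span, and uniquely assigned reads were 25.2% of Cd27 exon reads at P5 and 26.1% at 4 weeks, a share that 6.99% of the 12048 genes with at least 100 exon reads matched or fell below. Junction reads alone, 498 at P5 and 574 at 4 weeks, gave a log2 fold change of -0.29 (edgeR adjusted p = 0.259).

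Ccr9, at chr9:123767211-123783457, had 4.77, 7.93, 6.30 and 2.96 CPM in P5 libraries, against 5.21, 9.13, 5.89 and 10.1 CPM at 4 weeks. The ages overlapped widely, and the log2 fold change was -0.47 (SE 0.338; edgeR adjusted p = 0.382; 95% interval -1.14 to 0.19). None of its 340 exon reads over the 8 libraries crossed an exon-exon junction, as for 3.25% of genes with at least 100 exon reads. Its intron reads, 198 at P5 and 158 at 4 weeks, gave the opposite sign, 0.42 (edgeR adjusted p = 0.461). Neither direction passed the test.

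Dntt, which encodes terminal deoxynucleotidyl transferase, the enzyme that adds bases at antigen receptor joints, lies at chr19:41029275-41059525. Its 3 exon reads were in P5 replicates 1 and 2, and the 4-week libraries had 0 of 25266599 exon reads, which allows up to 0.119 CPM. Il7r, at chr15:9506159-9529941, had 1 exon read, in P5 replicate 2, of 27188075 over the P5 libraries, where 3 reads would be 0.110 CPM. These limits cover counting error only. Intron reads were also few, 25 at P5 and 12 at 4 weeks for Dntt and 7 at P5 and 3 at 4 weeks for Il7r. No fold change was computed for either gene, and a difference with age was not detectable at this depth.

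Ighm, at chr12:113418826-113422730, had no exon count of its own. The tables give it 2 rows, summed here, and the chromosome 12 row lies wholly within the row Igh. The 2 rows held 49 gene reads at P5 and 44 at 4 weeks, none uniquely assigned. In CPM of gene reads it had 0.327, 1.03, 0.181 and 0.610 at P5, against 0.612, 0.389, 0.486 and 0.461 at 4 weeks. The ages overlapped, with a log2 fold change of 0.14 (SE 0.519; edgeR adjusted p = 0.886). The Igh row, chosen after its values were seen, was at 18.8 ± 4.43 CPM of gene reads in P5 libraries and 48.0 ± 4.87 CPM in 4-week libraries (SD over 4 libraries), with 14.96 to 24.4 in P5 libraries and 43.5 to 54.4 in 4-week libraries. Its ages did not overlap, and the log2 fold change was -1.35 (SE 0.157; edgeR adjusted p = 0.000227). In the same fit of gene reads, 16.4% of 17097 genes were called, 7.92% higher and 8.52% lower at P5.

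**Figure D2:**
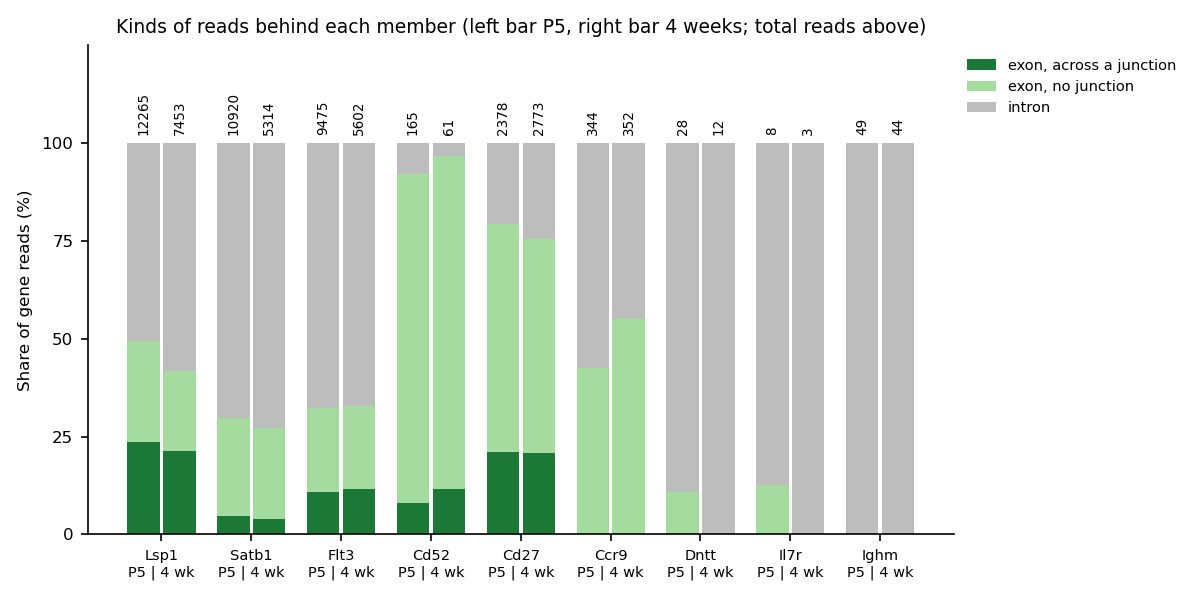
Share of each member's gene reads (%, axis from 0) that crossed an exon-exon junction, lay in an exon without crossing one, or lay in an intron, summed over 4 libraries per age; left bars are P5, right bars 4 weeks, and the total reads stand above. Cd52 and Cd27 are mostly exon reads, Satb1 and Flt3 mostly intron reads, and Ccr9 has no junction reads among its 344 gene reads at P5 and 352 at 4 weeks.

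The kinds of read differed between members more than between ages. Junction reads made up 47.6% of Lsp1 exon reads at P5 and 51.2% at 4 weeks, and 15.8% of Satb1 exon reads at P5 and 14.6% at 4 weeks, against a median of 19.0% over genes with at least 100 exon reads. Flt3 had 33.5% at P5 and 35.0% at 4 weeks. Per kilobase of exon, the levels at P5 ran from Lsp1 (82.6 CPM per kb) through Cd27 (37.9), Flt3 (18.3), Cd52 (10.9) and Satb1 (9.999) to Ccr9 (1.25), with Dntt and Il7r below. Flt3 and Cd52, and Cd52 and Satb1, overlapped in their P5 libraries. At 4 weeks the order was Lsp1 (45.4 CPM per kb), Cd27 (44.3), Flt3 (11.7), Satb1 (4.73), Cd52 (4.52) and Ccr9 (1.73), with overlap between Lsp1 and Cd27, Satb1 and Cd52, and Cd52 and Ccr9.

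The genes whose pattern over the 8 libraries was most like a member's were found by the root mean square difference of log2 CPM, each centred on its own mean. For Lsp1 they were Csrp2 (0.0667) and Capg (0.0748), against a median difference of 0.496 over all tested genes. For Satb1 they were Arid5b (0.0887) and S1pr1 (0.121), against a median of 0.623. Fam98c (0.164) and Nckap5l (0.171) were nearest to Flt3, against a median of 0.522, and Fdx1 (0.0986) and Mtrf1l (0.0998) to Cd27, against 0.325. The measure is a description over these libraries and carries no test.

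Transcription factors that act in early lymphoid cells were called in both directions. Of 20 listed, 15 were tested, with a median log2 fold change of 0.30. Of these, 7 were called higher and 2 lower, beside 7.99% and 8.55% of all tested genes. The higher genes were Ikzf1, Irf8, Mef2c, Notch1, Spi1, Tcf3 and Tcf7, and the lower ones Gata3 and Runx3. Spi1, which encodes PU.1, a factor of both myeloid and lymphoid cells, averaged 94.3 ± 2.86 CPM at P5 and 52.5 ± 4.44 CPM at 4 weeks (SD over 4 libraries each; log2 difference 0.84, edgeR adjusted p = 3.26e-05). Runx3, a factor of T and NK cells, averaged 15.5 ± 3.8 CPM at P5 and 35.6 ± 2.75 CPM at 4 weeks (log2 fold change -1.20, edgeR adjusted p = 0.000242). Bcl11a, needed for lymphoid development and the most abundant of the list, averaged 413 ± 46.6 CPM at P5 and 376 ± 23.7 CPM at 4 weeks and was not called (edgeR adjusted p = 0.340).

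The other called factors spanned a wide range of levels. Tcf7, a T lineage factor, had 3.72 to 6.06 CPM at P5 and 1.51 to 2.58 CPM at 4 weeks (log2 fold change 1.44, edgeR adjusted p = 0.0123). It passed the filter on low counts only through P5. Irf8, which directs dendritic cell and monocyte fates, had 20.8 to 38.4 CPM at P5 and 8.37 to 14.3 CPM at 4 weeks (1.20, edgeR adjusted p = 0.00230). Ikzf1, which encodes Ikaros, averaged 363.5 CPM at P5 and 294 CPM at 4 weeks (0.30, edgeR adjusted p = 0.00867). The B cell factors Pax5 and Ebf1 were not tested: Pax5 had no exon read, and Ebf1 had 3 at P5 and 5 at 4 weeks. Junction reads, which tested 12 of the list, called 3 higher and 0 lower, beside 4.35% and 5.03% of all genes tested with them. Leaving out 1 exon-read library at a time gave 6 to 7 of the list higher and 1 to 2 lower.

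Genes around the cytokine and surface receptors gave 1 higher and 5 lower of 19 tested among 20 listed, with a median log2 fold change of -0.19. Of all tested genes, 7.99% were called higher and 8.55% lower. Among the lower genes of the list, Cish and Socs2 encode feedback inhibitors that cytokine signalling induces through STAT5. Stat5a encodes a form of that factor, Bcl2 a survival protein and Il7 the ligand of Il7r. Il7 was low, at 1.04 CPM at P5 and 4.17 CPM at 4 weeks, and passed the filter on low counts only through 4 weeks. Stat5b, the gene of the other STAT5 form, was not called, at 274 CPM at P5 and 261 CPM at 4 weeks (edgeR adjusted p = 0.618). Jak1 (edgeR adjusted p = 0.203) and Jak3 (edgeR adjusted p = 0.578) were not called either. Cish averaged 25.2 ± 2.08 CPM at P5 and 81.1 ± 14.7 CPM at 4 weeks (SD over 4 libraries each; log2 difference -1.69, edgeR adjusted p = 3.14e-06). Socs2 averaged 70.4 ± 12.5 CPM at P5 and 201 ± 35.1 CPM at 4 weeks (-1.51, edgeR adjusted p = 9.16e-06). The higher gene was Cbl, which encodes a ubiquitin ligase that takes down receptors including Flt3 and is the most abundant of the list, at 609.7 ± 47.4 CPM at P5 and 415 ± 26.2 CPM at 4 weeks (0.56, edgeR adjusted p = 0.000352). Flt3l, the Flt3 ligand gene, averaged 19.2 CPM at P5 and 24.0 CPM at 4 weeks (edgeR adjusted p = 0.185), Ccl25 4.16 CPM at P5 and 5.28 CPM at 4 weeks (edgeR adjusted p = 0.517), and Cd70, the ligand of Cd27, had no read.

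Of the genes of V(D)J recombination and its end joining, 11 of 13 were tested. Among these 11, edgeR called 0, beside 16.5% of all tested genes, and 1 had an unadjusted p under 0.05. DESeq2 called 1 of the 11, Xrcc5, and limma-voom 0. Xrcc5, which encodes the Ku80 end-binding protein, averaged 60.0 ± 9.68 CPM at P5 and 46.2 ± 4.45 CPM at 4 weeks (SD, n = 4 each; edgeR adjusted p = 0.0590), and without P5 replicate 2 it was called (edgeR adjusted p = 0.0470). Polm, a polymerase related to Dntt, averaged 8.73 ± 2.16 CPM at P5 and 5.20 ± 2.71 CPM at 4 weeks (edgeR adjusted p = 0.187). Prkdc, the catalytic kinase subunit and the most abundant, averaged 187 CPM at P5 and 185 CPM at 4 weeks (edgeR adjusted p = 0.943). The recombinase genes were not tested: Rag1 had 1 exon read at P5 and 14 at 4 weeks, and Rag2 had 4 at P5 and 0 at 4 weeks.

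Surface genes of multipotent progenitors were all tested, with a median log2 fold change of 0.14. Of the 12, 4 were called higher and 2 lower, beside 7.99% and 8.55% of all tested genes. Cd53, a leukocyte tetraspanin, averaged 122 ± 11.7 CPM at P5 and 41.6 ± 9.47 CPM at 4 weeks (SD, n = 4 each; 1.55, edgeR adjusted p = 8.99e-06). Csf3r, the G-CSF receptor gene, averaged 90.2 ± 8.55 CPM at P5 and 155 ± 12.1 CPM at 4 weeks (-0.78, edgeR adjusted p = 6.35e-05). Plac8, whose transcript marks multipotent and myeloid progenitors, had 14.8 to 28.1 CPM at P5 and 43.3 to 65.3 CPM at 4 weeks (-1.37, edgeR adjusted p = 0.000423). Cd33 and Cd37 were also called higher, and Cd34 was the most abundant, at 239 ± 26.8 CPM at P5 and 227 ± 21.0 CPM at 4 weeks (edgeR adjusted p = 0.634).

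Markers of the cell types that the members also mark were measured in the same libraries, and their part in these results was not tested. Of 13 B cell genes with an mRNA model, Ms4a1 and Ly6d had no read, and the list summed to 48.4 to 64.9 CPM at P5 and 36.2 to 50.3 CPM at 4 weeks. The most abundant was Cd79b, an antigen receptor signalling chain, at 39.3 ± 8.12 CPM at P5 and 21.5 ± 1.65 CPM at 4 weeks (SD, n = 4 each; 0.87, edgeR adjusted p = 0.00158). Of 11 T cell genes, Cd3e, Cd3g, Cd8b1, Cd2 and Bcl11b had no read, and the sum was 44.99 to 59.99 CPM at P5 and 37.2 to 44.1 CPM at 4 weeks. The most abundant T cell gene, Cd247, averaged 19.1 CPM at P5 and 19.8 CPM at 4 weeks. Cd4 was called higher, at 15.6 ± 3.87 CPM at P5 and 6.09 ± 1.30 CPM at 4 weeks (1.35, edgeR adjusted p = 0.00178). Two-sided exact permutation tests of the summed levels gave p = 0.0571 for B cell genes and p = 0.0286, the smallest that 4 against 4 libraries allow, for T cell genes. After Benjamini-Hochberg adjustment over 7 lists these were 0.12 for B cell and 0.1 for T cell genes. The B cell sum was higher at P5 by 14.6 CPM in exon reads and by 2.23 CPM in total gene reads (exact permutation adjusted p = 0.667 in gene reads). In total gene reads the T cell sum had the opposite sign, -6.83 CPM (adjusted p = 0.667).

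Other blood lineages were represented unevenly. NK cell genes, with Ncr1, Klrd1, Gzma, Gzmb and Eomes at 0 of 8 listed, summed to 5.66 to 12.9 CPM at P5 and 9.32 to 18.6 CPM at 4 weeks (exact permutation p = 0.2, adjusted p = 0.233). Nkg7, a cytotoxic granule gene, was lower at P5, at 2.08 CPM against 9.02 CPM at 4 weeks (edgeR adjusted p = 0.00121), and Klrb1c was at 8.33 CPM at P5 and 5.65 CPM at 4 weeks. Nkg7 passed the filter on low counts only through 4 weeks. The 7 plasmacytoid dendritic cell genes, with Cox6a2 at 0, summed to 3.07 to 9.79 CPM at P5 and 0.97 to 3.96 CPM at 4 weeks (exact permutation p = 0.0857, adjusted p = 0.12). Pacsin1 was called higher, at 3.60 CPM at P5 and 0.566 CPM at 4 weeks (edgeR adjusted p = 0.00596). It had 14 exon reads at 4 weeks and passed the filter on low counts only through P5. Erythroid genes, of which Alas2 of 10 had no read, summed to 600.3 to 929 CPM at P5 and 99.1 to 216 CPM at 4 weeks (exact permutation p = 0.0286, adjusted p = 0.1), most of it the globin Hbb-bt (edgeR adjusted p = 1.29e-07). HSC genes summed to 5028 to 5624 CPM at P5 and 4647 to 5183 CPM at 4 weeks (exact permutation p = 0.0857, adjusted p = 0.12), and in total gene reads the difference was -16.9 CPM (adjusted p = 0.971).

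P5 replicate 2 stood apart in 1 of these lists. The 12 neutrophil and monocyte genes summed to 397 CPM there, against 188 to 214 CPM in the other P5 libraries and 180.1 to 207 CPM at 4 weeks (exact permutation p = 0.286 between ages, and 0.286 after adjustment). None of the 12 was without a read, and Lyz2, the most abundant, averaged 172 CPM at P5 and 158 CPM at 4 weeks. Csf1r, the macrophage growth factor receptor gene, made up much of the excess, with 158 CPM in P5 replicate 2 and 3.53 to 7.92 CPM in the other P5 libraries, against 3.45 to 3.95 CPM at 4 weeks. Of 6 genes of the list tested, 3 were called higher at P5 and 1 lower, beside 7.99% and 8.55% of all tested genes. The number called higher depended on the setting, with 2 in DESeq2 and 1 with the replicate block. S100a8, the lower one and the gene with the smallest p, had 0 exon reads at P5 and 64 at 4 weeks. It passed the filter on low counts only through 4 weeks. Besides Csf1r the higher ones were Ltf, at 3.13 CPM at P5 and 0.666 CPM at 4 weeks (edgeR adjusted p = 0.0279), and Mpo, at 5.62 CPM at P5 and 1.46 CPM at 4 weeks (edgeR adjusted p = 0.0110). Ltf had 16 exon reads at 4 weeks and Mpo 38, and each passed the filter only through P5. P5 replicate 2 was also the highest of all 8 libraries for Flt3 and Satb1. Without it, Lsp1 (0.83, edgeR adjusted p = 2.92e-05) and Satb1 (0.95, edgeR adjusted p = 0.000167) were still called and Flt3 (0.48, edgeR adjusted p = 0.0956) was not.

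**Figure D3:**
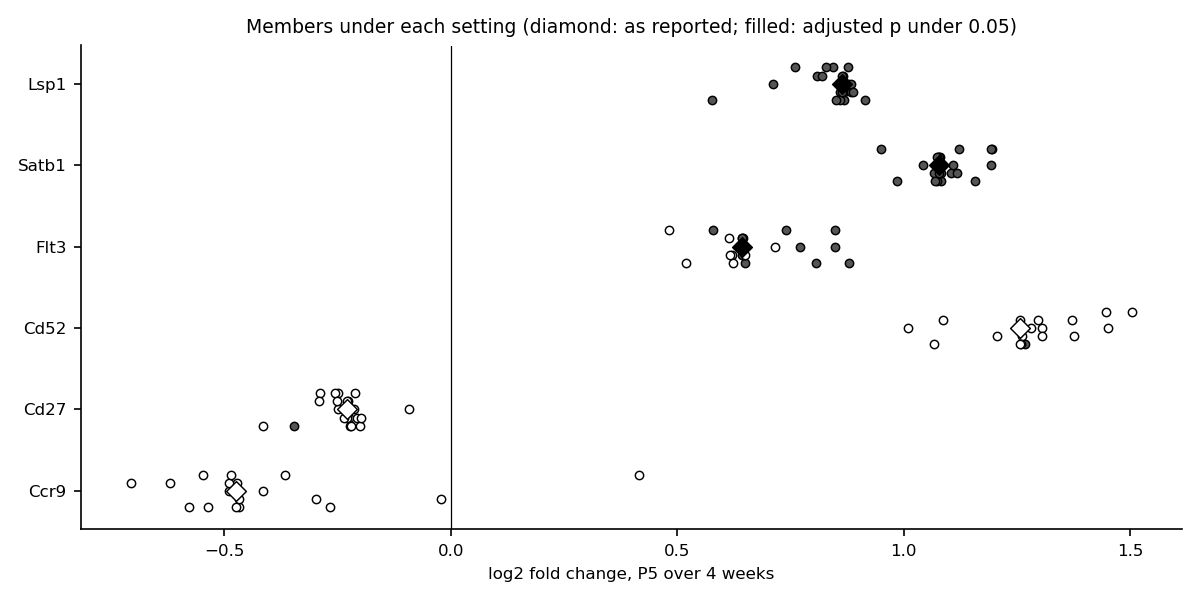
Log2 fold change of P5 over 4 weeks for the 6 tested members as reported (diamonds) and under each alternative set of reads, scaling, test or libraries (circles, spread vertically for clarity); filled symbols passed an adjusted p of 0.05. Satb1 and Lsp1 stay filled and right of 0, Flt3 has open and filled circles between 0.48 and 0.88, and Ccr9 crosses 0 with intron reads at 0.42.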

How the data were processed

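RNA was measured in 8 libraries of 100 sorted mouse HSCs, 4 per age, made with a Nextera XT kit per the labels' protocols. The authors deposited, for each library, counts of exon, exon-exon junction, intron and gene reads, total and uniquely assigned, per the file headers. The submitters' processing notes name the build mm10; no aligner is named in the sources used here. The deposited p-values (EDGE test, raw and FDR-corrected) were quoted only as the authors'.

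Rows of 1 gene symbol were summed, giving 22050 genes with an mRNA model from 48835 rows. Total exon reads were scaled by TMM, filtered with filterByExpr (12235 genes, holding 99.8% of exon reads) and tested in edgeR 4.0.16 (R 4.3.3) by the quasi-likelihood test, with Benjamini-Hochberg adjustment over all tested genes and a threshold of 0.05. Tables were read with Python 3.11.15. CPM are exon reads scaled to the library's exon reads unless gene reads are named. The procedure was tested on simulated data. Marker lists were summed in CPM and compared by an exact permutation test over 70 splits.

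Alternatives were DESeq2 1.42.0, limma-voom (limma 3.58.1), other scalings and filters, other kinds of read, a covariate for Y-linked reads (at least 100), a replicate block and leaving out each library; junction reads and the list counts by setting were added after seeing the data. The members and lists were chosen with earlier results of these data known. Named were all members, the 2 listed genes with the smallest p and the most abundant in each pathway list, 1 of each in each marker list, and the 2 genes nearest each member of mean log2 CPM of at least 4; further listed genes were picked with their values in view. The values of 2 listed genes are not reported here. Replicates of an age differed by more than sampling noise. Depth was 5775130 to 7470777 exon reads. Limits for genes without reads cover counting error only. Standard errors of edgeR fold changes were derived from the fold change and the F statistic of the test. The 95% intervals apply a normal approximation to them and are narrower than the test implies.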

Additional observations from a re-analysis of the deposited data

Results flagged for a closer look

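In 4-week replicate 2, Satb1 stood at 44.1 CPM, apart from the other 3 libraries of its age at 60.4 to 62.6 CPM, by Dixon's test for a single far value; leaving it out kept the call. In P5 replicate 2 the summed neutrophil and monocyte genes reached 397 CPM, apart from 188 to 214 CPM in the other 3 P5 libraries by the same test. Chance marks about 1 in 20 groups of 4 in this way, and the part of either library in the results on the members was not tested beyond the fits without it.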

How the results depend on the processing

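Satb1 kept its call in all 22 alternatives, and Lsp1 in all but the rule asking for at least 2-fold. Flt3 lost its call in 9 alternatives while keeping its sign: limma-voom (adjusted p = 0.0532), the replicate block (edgeR adjusted p = 0.0971), the 2-fold rule and 6 of the fits without 1 library. The cause was not tested. Cd52 was called by DESeq2 alone among them. Ccr9 turned to 0.42 with intron reads. Genes called numbered 977 higher and 1046 lower, but 628 higher and 608 lower with Y-linked reads as a covariate, 619 higher and 638 lower in the 6 libraries with such reads, 400 higher and 462 lower from junction reads, and 323 higher and 349 lower at 2-fold or more. Leaving out each library gave 702 to 985 higher and 795 to 1069 lower; among members it gave 2 to 3 higher and 0 to 1 lower, the 1 being Cd27 without 4-week replicate 2. With the 2-fold rule 1 member, Satb1, was higher. The summed HSC and T cell genes turned to -16.9 (adjusted p = 0.971) and -6.83 (adjusted p = 0.667) in CPM of total gene reads. The labels do not say whether equal replicate numbers pair the libraries. Deviations of same-numbered libraries correlated at -0.0309, -0.236, -0.0955 and -0.0517, which cannot settle whether they shared a sort or batch. The file headers number 4-week replicates 1 and 2, named here by their titles, in the other order, and paired so they correlated at 0.126 and 0.0237. With the replicate block 577 genes were called higher and 723 lower. Dntt and Il7r are limited by depth.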
